A study of Arabidopsis thaliana with 9 samples.

Results

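Seedlings of the Arabidopsis thaliana line emb1579-3 were compared with seedlings of the line emb1579-1 across all nuclear genes, with 3 libraries a side, 6 of the 9 libraries of the series. By their labels both lines are mutants of EMB1579 (AT2G03150, also RSA1) in the Col-0 background. The labels name no lesion for either line. Whole seedlings, roots and shoots together, were taken after 6 days at 20 °C, following 3 days of stratification on diluted Murashige and Skoog medium, with no other treatment. No Col-0 library entered the comparison. Levels of Col-0 replicates 1 and 2 stand beside some results as values only. Col-0 replicate 3 was left out of these, because it held 1.18 M counts against 24.1 to 37.5 M in the other 8 libraries. Col-0 replicate 2 had counts at 31679 nuclear genes, against 23587 in Col-0 replicate 1 and 23108 to 23905 in the 6 libraries compared. Low Col-0 values in replicate 2 are therefore uncertain. The 3 columns used for emb1579-3 carry a column prefix that differs from the one in the labels, and they were given to that line because no other group of the labels was left for them.

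EMB1579 encodes a nuclear protein that was found through mutants with a short root on salt medium and that is required for embryo development. It has been reported to work with the CUL4-DDB1 ubiquitin ligase and its adaptor MSI4, and through them on the expression of many genes. The series asked how it acts on genes of root growth. Setting one mutant line against the other asks what differs between plants that share the mutated gene and the growth conditions.

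The EMB1579 transcript checks the labels. It was at 90.3, 94.2 and 91.9 CPM (nuclear counts brought to the same total in each library and scaled by TMM factors) in the 3 libraries labelled emb1579-1 and at 4.06, 2.08 and 2.17 CPM in emb1579-3. In Col-0 it was at 93.8 and 95 CPM. Its TAIR10.1 coordinates are chromosome 2, 951888 to 959236, plus strand. The libraries labelled emb1579-1 thus held the transcript at the level of Col-0 and those of emb1579-3 held little of it, with an edgeR log2 fold change of -5.04 (SE 0.15, adjusted p = 6.25e-11). A mutation can leave the transcript level as it is, so this value does not tell what the libraries labelled emb1579-1 carry, and that wording is kept here.

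The 6 libraries held 24.1 to 28.8 M counts each, of which nuclear genes took 12.5 to 15.5 M and organelle genes 45.8% to 48.8%. Shoot markers (28 of 29 tested) summed to 71460 to 79550 CPM in the libraries labelled emb1579-1 and to 72740 to 81210 CPM in emb1579-3. Root markers (all 17 tested) summed to 1616 to 2249 CPM and 1452 to 1982 CPM, so both tissues were present and the groups overlapped. In Col-0 the root markers summed to 3129 and 3700 CPM. Of 18 seed and embryo markers, 2 were tested and 13 had at most 3 counts in each of the 6 libraries. Replicate 1 labelled emb1579-1 stood apart from the other 2 libraries of its line. It correlated with them at 0.9885 and 0.9888 (Pearson, log2 CPM over nuclear genes), while they correlated with each other at 0.9942. The first principal component (32.2% of the variance) separated the lines and the second (27.2%) set this library apart. Against its 2 sister libraries, its median log2 level was 0.74 higher over root hair and epidermis genes and 0.58 higher over dehydration and cold genes, and differed by -0.40 over mitosis genes. Its root marker sum was 2249 CPM, against 1616 and 1627 CPM in the other 2. The counts of the main lists are therefore given with and without it, and its part in the results was not tested otherwise. In whole seedlings, fewer cells of a type and less RNA per cell cannot be told apart.

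Of 19697 nuclear genes tested, 244 (1.24%) differed between the lines at an adjusted p under 0.05. In emb1579-3, 117 genes (0.594%) were higher and 127 (0.645%) were lower than in the libraries labelled emb1579-1. A difference of at least 2-fold was reached by 36 higher genes (0.183%) and 21 lower genes (0.107%), while 116 of the 244 differed by less than 1.5-fold. The 3 values of one line lay wholly beyond the 3 of the other in all 244 called genes, and also in 15.1% of all tested genes (7.24% higher, 7.88% lower). The median log2 fold change over all tested genes was 0.01, a value that TMM scaling brings near 0. The estimated difference was within 1.5-fold for 96.7% of the tested genes. In edgeR 1927 of 19697 genes had an unadjusted p under 0.05. The called genes were split almost evenly by direction.

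**Figure D1:**
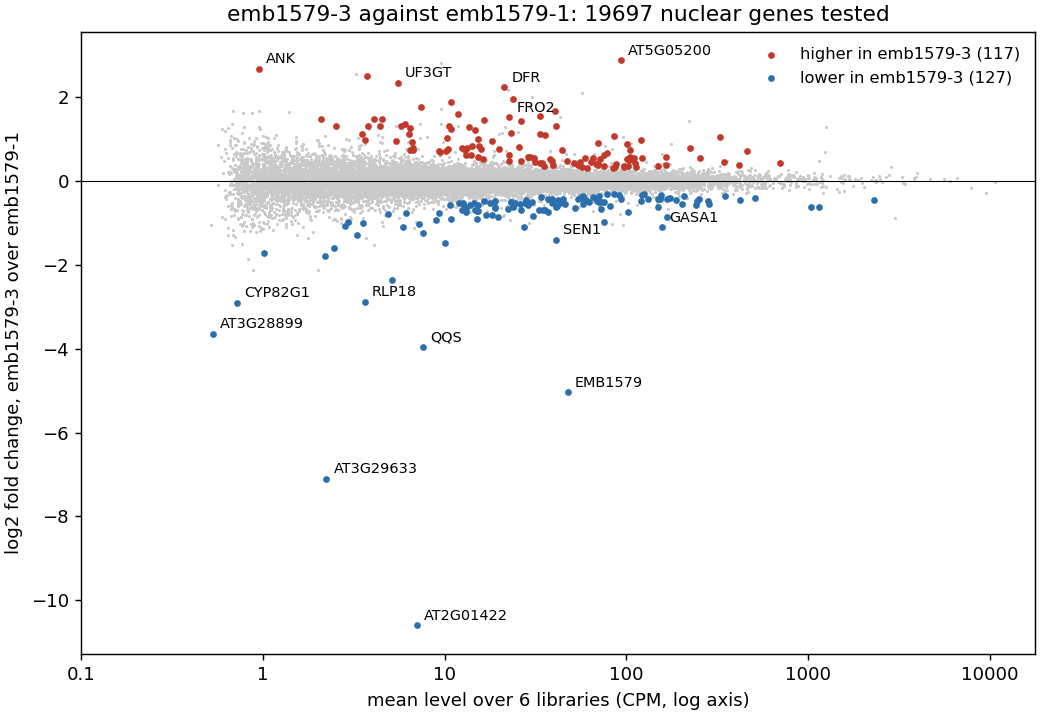
Log2 fold change of emb1579-3 over the libraries labelled emb1579-1 (vertical axis) against the mean level over the 6 libraries (horizontal axis, CPM, log scale) for 19697 nuclear genes. Red points are the 117 genes called higher in emb1579-3, blue points the 127 called lower, and grey points were not called; EMB1579 and a few low-level loci lie far below the rest.

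The number of calls depended on which libraries were in the fit. Without replicate 1 labelled emb1579-1, 284 genes were higher and 223 lower of 19994 tested, and 227 of the 244 were among them. Counts on the gene lists without that library are to be read beside these. Leaving out replicate 2 or 3 labelled emb1579-1 gave 63 and 50 or 56 and 59 calls. Leaving out emb1579-3 replicate 1, 2 or 3 gave 85 and 103, 88 and 98, or 73 and 58 calls. A total of 86 genes, 50 higher and 36 lower, were called in all 6 of these fits, and no called gene changed direction in any of them.

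**Figure D2:**
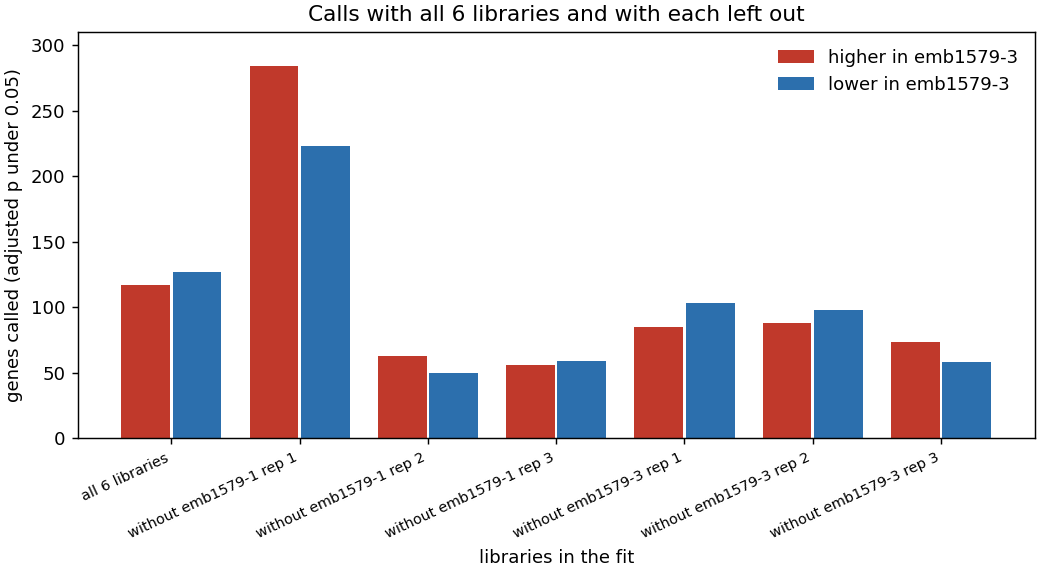
Number of nuclear genes called higher (red bars) or lower (blue bars) in emb1579-3 with all 6 libraries and with each library left out in turn (horizontal axis). The fit without replicate 1 labelled emb1579-1 made 284 and 223 calls, and each of the other 5 reduced fits made fewer than the fit of all 6 libraries.

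The widest gaps were at single loci that were nearly silent in one line. AT2G01422, a noncoding RNA gene on chromosome 2 (183940 to 184734, plus strand), was at 14.2, 16.8 and 11 CPM in the libraries labelled emb1579-1. It had no count in any emb1579-3 library. With 565 counts on one side and 0 on the other, it was at least 67.4-fold lower in emb1579-3, taking 3 counts per library as the floor. In Col-0 it was at 0 and 0.365 CPM, so the libraries labelled emb1579-1 were the ones with a high value. AT3G29633, an uncharacterized gene on chromosome 3 (11452509 to 11453528, minus strand), had 51, 72 and 55 counts in the libraries labelled emb1579-1 and 0, 1 and 0 in emb1579-3. The ratio was 191 (95% exact interval 33.9 to 7590, counting error only). Col-0 had 1 and 3 counts there.

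QQS (AT3G30720, chromosome 3, 12349047 to 12349933, plus strand), a gene found only in Arabidopsis thaliana that affects starch content, was at 13.2, 15 and 14.8 CPM in the libraries labelled emb1579-1. In emb1579-3 it was at 0.88, 1.28 and 0.638 CPM. The lines did not overlap, and the log2 fold change was -3.96 (SE 0.21, adjusted p = 6.56e-09). Col-0 was at 3.53 and 1.3 CPM, between the lines, with a mean nearer to emb1579-3. RLP18, the gene of a receptor-like protein, and its neighbour AT2G15042, which encodes a leucine-rich repeat protein, lie side by side on chromosome 2 (6507402 to 6509319 and 6510841 to 6512641). RLP18 was at 6.14, 7.42 and 5.56 CPM labelled emb1579-1 and at 0.609, 1.04 and 0.957 CPM in emb1579-3, with a log2 fold change of -2.87 (SE 0.26, adjusted p = 6.89e-06). AT2G15042 was lower as well, at 8.58 ± 1.9 CPM (SD, n = 3) and 1.7 ± 0.62 CPM (n = 3). At both genes Col-0 was high, with 6.82 and 5.37 CPM for RLP18 and 19.2 and 14.5 CPM for AT2G15042.

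In the other direction, AT5G05200, a gene of the protein kinase superfamily on chromosome 5 (1544007 to 1547207), had the smallest adjusted p of all genes. It was at 23.6, 22.8 and 21.1 CPM in the libraries labelled emb1579-1 and at 174, 167 and 153 CPM in emb1579-3. The log2 fold change was 2.87 (SE 0.08, adjusted p = 1.68e-12), and Col-0 was at 205 and 198 CPM. AT5G05200 overlaps another annotated gene, and the strand setting of the counting is not given. AT5G35935, an uncharacterized gene on chromosome 5, was at 0.778, 1.58 and 0.954 CPM labelled emb1579-1 and at 5.55, 6.31 and 7.28 CPM in emb1579-3, with Col-0 between at 2.42 and 2.76 CPM. Its neighbour AT5G35940, a mannose-binding lectin gene, went the other way, from 3.72 ± 0.74 to 1.22 ± 0.16 CPM (SD, n = 3 each). AT2G01422, AT2G15042, AT3G29633, AT5G05200 and AT5G35935 have no symbol in the annotation and were chosen after their values were seen. All the loci named in this paragraph and in those on the nearly silent loci were called in each of the 6 fits with a library left out.

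**Figure D3:**
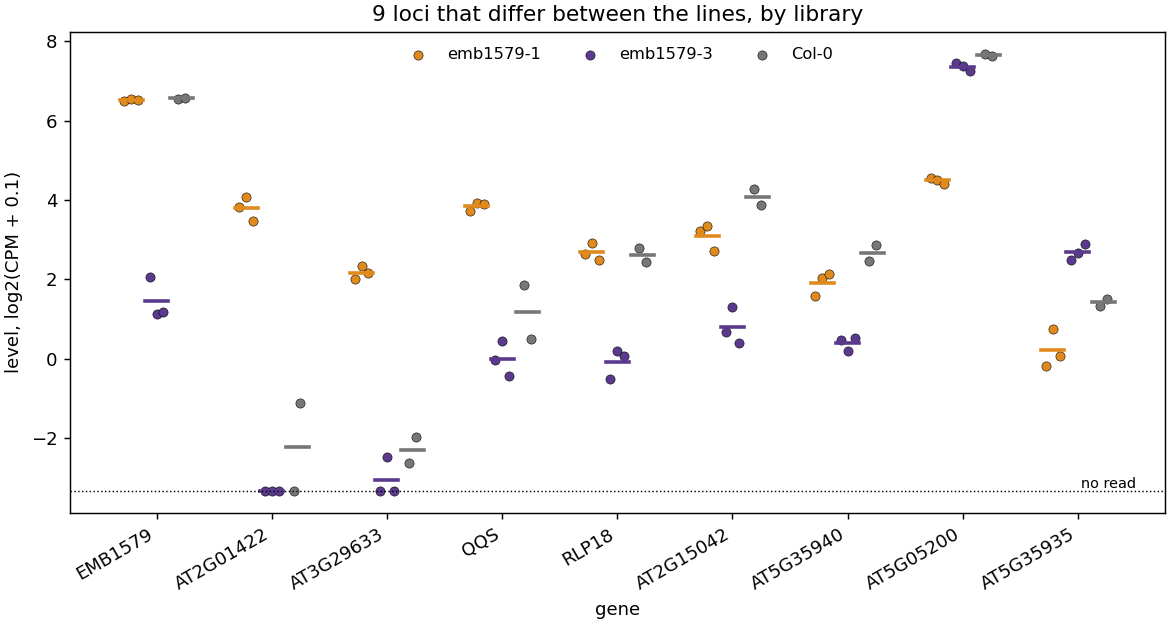
Level of 9 loci by library, as log2(CPM + 0.1), with each point a library and each bar the mean of its group (orange, labelled emb1579-1; purple, emb1579-3; grey, Col-0 replicates 1 and 2). The dotted line is where a library without a read falls; the 3 emb1579-3 libraries lie on it for AT2G01422, and the groups of the 2 lines do not overlap at any of the 9 loci.

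Of 19 tested genes on the flavonoid and anthocyanin list, 8 were higher in emb1579-3 and 0 lower, with a median log2 fold change of 0.37. This was 42.1% called, beside 1.24% of all tested genes. The lists were chosen with earlier results of these data known, and such shares were not tested. Anthocyanins are the red and purple pigments that seedlings make under bright light, cold, sugar excess or nutrient shortage. Chalcone synthase (TT4) opens the flavonoid pathway, DFR and LDOX carry it to coloured anthocyanidins, and transferases add sugar and acyl groups before a glutathione S-transferase brings the pigment to the vacuole. Without replicate 1 labelled emb1579-1, 9 were higher, and with any other library left out 4 to 7 were.

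DFR (AT5G42800), dihydroflavonol reductase, was at 8.09, 6.05 and 8.34 CPM in the libraries labelled emb1579-1 and at 40, 29.5 and 35.4 CPM in emb1579-3. Every emb1579-3 library was above every library of the other line, with a log2 fold change of 2.23 (SE 0.14, adjusted p = 9.36e-08). UF3GT (AT5G54060), a transferase that decorates anthocyanins with a further sugar, was at 1.4, 2.27 and 1.75 CPM labelled emb1579-1 and at 9.54, 8.7 and 9.51 CPM in emb1579-3 (log2 fold change 2.35, SE 0.20, adjusted p = 3.35e-06). LDOX was at 9.81 ± 2.5 CPM and 37.9 ± 4.4 CPM (SD, n = 3 each; log2 fold change 1.96, SE 0.15, adjusted p = 8.06e-06). These 3 genes act late in the pathway and had the largest differences on the list.

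GSTF12, the transferase of vacuolar transport, was at 4.67 ± 2.1 and 17 ± 1.8 CPM (SD, n = 3 each; log2 fold change 1.88, adjusted p = 0.00153). PAP1 (AT1G56650), the MYB activator of the late genes, was at 3.58, 1.65 and 2.38 CPM labelled emb1579-1 and at 7.45, 5.27 and 5.94 CPM in emb1579-3 (log2 fold change 1.31, SE 0.25, adjusted p = 0.011). PAP1 lost its call in 4 of the 6 fits with a library left out, with adjusted p up to 0.0663. The acyltransferase gene scpl10 was 1.72-fold higher, TT4 1.45-fold and UGT78D2, which adds the first sugar, 1.29-fold. None of scpl10, TT4 and UGT78D2 was called in every reduced fit, with adjusted p up to 0.0794, 0.251 and 0.184. PAL1 (log2 fold change 0.17), TT5 (0.22), FLS1 (0.39) and the regulator TT8 (0.68) did not pass the threshold.

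Genes outside the list, chosen after their values were seen, belong to the same pathway. AT5MAT (AT3G29590), which adds a malonyl group to anthocyanins, was at 2.8, 3.23 and 4.13 CPM labelled emb1579-1 and at 12.3, 8.94 and 13 CPM in emb1579-3 (log2 fold change 1.76, SE 0.19, adjusted p = 4.54e-05). AT4G14090, a glycosyltransferase gene, was 1.95-fold higher, and CHIL, a helper of chalcone synthase, 1.45-fold. MYBL2, a repressor of anthocyanin genes, was lower, at 48.6 ± 6.1 and 35.5 ± 3.7 CPM (SD, n = 3 each; adjusted p = 0.0419), a call that held in 2 of the 6 reduced fits. In Col-0, DFR was at 2.36 and 6.15 CPM and LDOX at 3.28 and 6.2 CPM, below or within the range of the libraries labelled emb1579-1. Of the 8 called genes of the list, 6 had a Col-0 mean nearer to the libraries labelled emb1579-1 and 2 nearer to emb1579-3. GSTF12, TT4 and AT4G14090 overlap another annotated gene.

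The start regions of the called genes of the list were searched for the letters CACGTG, known as the G-box, in the 250 bases before to 50 after the annotated start (TAIR10.1). The letters read the same on both strands. DFR, UF3GT, TT4 and scpl10 held them, 4 of 8. Among all higher genes 16.2% of windows held the letters, and among all tested genes 8.66%. The difference was not tested. The windows of the genes with the largest fold changes are shown with CACGTG in capitals, DFR at chr5:17165983-17166282 and UF3GT at chr5:21938347-21938646, both read 5′ to 3′ on the minus strand. Each holds the letters at 2 places.
DFR: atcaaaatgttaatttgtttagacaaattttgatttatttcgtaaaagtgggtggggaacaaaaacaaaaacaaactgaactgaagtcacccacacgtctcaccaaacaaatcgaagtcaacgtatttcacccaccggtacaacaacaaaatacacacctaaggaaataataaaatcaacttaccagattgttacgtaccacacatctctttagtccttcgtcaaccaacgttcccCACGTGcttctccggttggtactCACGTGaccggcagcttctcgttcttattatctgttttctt
UF3GT: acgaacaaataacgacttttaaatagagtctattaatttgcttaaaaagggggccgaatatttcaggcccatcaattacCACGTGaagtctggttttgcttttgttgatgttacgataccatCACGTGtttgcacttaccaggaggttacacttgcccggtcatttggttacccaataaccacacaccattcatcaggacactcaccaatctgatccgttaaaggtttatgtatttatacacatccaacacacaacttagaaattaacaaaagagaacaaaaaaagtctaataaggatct

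Genes of iron uptake and signalling were the other group with many calls. Plants short of iron switch on FRO2, which reduces ferric iron at the root surface, and IRT1, which imports the product. A small family of bHLH factors (bHLH38, bHLH39, BHLH100, BHLH101) drives these genes, BTS marks regulators for breakdown, and ferritins store iron when it is ample. Of 22 tested genes on the list, 7 were higher in emb1579-3 and 2 lower, and both lower ones encode ferritins. This was 40.9% called, beside 1.24% of all tested genes. The median log2 fold change was 0.68 over the list, against 0.01 over all genes. Without replicate 1 labelled emb1579-1 the counts were 11 higher and 2 lower, with a median of 0.76. Without replicate 2 or 3 of that line they were 5 and 1, and without any 1 emb1579-3 library 6 to 8 higher and 1 to 2 lower.

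FRO2 (AT1G01580) was at 15.2, 9.21 and 10.7 CPM in the libraries labelled emb1579-1 and at 30.2, 40.9 and 29.7 CPM in emb1579-3. The lines did not overlap, with a log2 fold change of 1.52 (SE 0.18, adjusted p = 0.00236). BHLH101 was at 7.7, 5.43 and 5.01 CPM labelled emb1579-1 and at 18.1, 14 and 12.8 CPM in emb1579-3 (log2 fold change 1.31, SE 0.18, adjusted p = 0.000771). bHLH39 was higher as well (log2 fold change 1.14, adjusted p = 0.0182), but not in every reduced fit, with adjusted p up to 0.152. The other 2 bHLH genes had fold changes as large with more scatter. BHLH100 was at 20.3, 16.1 and 15.1 CPM and 69.7, 37.3 and 40.1 CPM (log2 fold change 1.52, adjusted p = 0.165), and bHLH38 had a log2 fold change of 1.53 (adjusted p = 0.216). Both were non-overlapping between the lines without passing the threshold.

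IRT1 was at 12.3 ± 4.5 CPM labelled emb1579-1 and at 30.4 ± 5.5 CPM in emb1579-3 (SD, n = 3 each), with no overlap. Its adjusted p was 0.0733 with all 6 libraries and 1.53e-06 without replicate 1 labelled emb1579-1, which was its highest library on that side. CYP82C4, an enzyme of coumarin synthesis that is induced by iron shortage, was at 20, 9.28 and 6.99 CPM and 42.6, 63.3 and 38.6 CPM, with an adjusted p of 0.282. Without that library its log2 fold change was 2.55 and its adjusted p 0.0113. NAS4, which makes the metal chelator nicotianamine, was at 10, 10.4 and 10.3 CPM and 18.3, 17 and 18.9 CPM (log2 fold change 0.82, SE 0.11, adjusted p = 0.000771). FRO3, the mitochondrial ferric reductase, BTS and the phloem iron transporter OPT3 were 1.58, 1.63 and 1.46-fold higher. OPT3 lost its call in 4 of the 6 reduced fits, with adjusted p up to 0.156.

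FER1, a chloroplast ferritin, was at 24.7, 24 and 20.6 CPM labelled emb1579-1 and at 11.8, 13.7 and 14.1 CPM in emb1579-3 (log2 fold change -0.80, SE 0.12, adjusted p = 0.00128). FER4 was 1.53-fold lower (adjusted p = 0.011; up to 0.0851 in the reduced fits), while FER3 had a log2 fold change of -0.26 (adjusted p = 0.379). The called ferritins thus differed in the opposite direction to FRO2. Of the other uptake genes, IRT2 had a log2 fold change of 0.03 and the proton pump gene HA2 of -0.01, neither past the threshold. The 17 root markers summed to 1982, 1553 and 1452 CPM in emb1579-3 and to 2249, 1616 and 1627 CPM in the other line, and their part in the iron results was not tested. In Col-0 the ferritin levels were not alike between the 2 libraries, with 15.5 and 45.3 CPM for FER1. All 9 called genes of the list had a Col-0 mean nearer to the libraries labelled emb1579-1. FRO3, bHLH38, BHLH101, FER1 and FER4 overlap another annotated gene, and the ferritins and the bHLH factors have close copies between which reads can be shared.

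Further genes of metal handling were chosen after their values were seen. The zinc and nicotianamine exporter gene ZIF1 and the vacuolar iron exporter gene NRAMP4 were 1.67 and 1.54-fold higher in emb1579-3. ORG1 was at 212 ± 43 and 439 ± 64 CPM (SD, n = 3 each; log2 fold change 1.05, adjusted p = 0.0119). AT1G13609, a defensin-like gene, was at 21.8, 15.4 and 14.1 CPM labelled emb1579-1 and at 57.4, 44 and 48.2 CPM in emb1579-3 (log2 fold change 1.55, SE 0.15, adjusted p = 0.000337). Lower genes were YSL1, a transporter of metal-nicotianamine complexes, by 1.82-fold, NAS3 by 2.01-fold, and NEET and ABCI8, which serve iron-sulphur clusters, by 1.59 and 1.35-fold. Of these, ORG1 and NAS3 were not called in every reduced fit, with adjusted p up to 0.134 and 0.25.

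Among the called genes of the iron list, FRO3, BTS, OPT3 and FER4 held CACGTG in the same window, 4 of 9. The share was 16.2% among all higher genes, 9.45% among all lower genes and 8.66% among all tested genes, with no test. The windows of BTS (chr3:6273716-6274015, plus strand) and FRO3 (chr1:8153747-8154046, minus strand) are shown, since these had the smallest adjusted p of the higher genes with the letters. BTS holds CACGTG at 3 places, in capitals, and FRO3 at 1.
BTS: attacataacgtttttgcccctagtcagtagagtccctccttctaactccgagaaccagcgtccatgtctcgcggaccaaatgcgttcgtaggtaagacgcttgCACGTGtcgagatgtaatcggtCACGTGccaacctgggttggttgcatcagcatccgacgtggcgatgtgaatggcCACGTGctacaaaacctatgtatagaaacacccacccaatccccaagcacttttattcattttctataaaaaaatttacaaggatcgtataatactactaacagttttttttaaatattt
FRO3: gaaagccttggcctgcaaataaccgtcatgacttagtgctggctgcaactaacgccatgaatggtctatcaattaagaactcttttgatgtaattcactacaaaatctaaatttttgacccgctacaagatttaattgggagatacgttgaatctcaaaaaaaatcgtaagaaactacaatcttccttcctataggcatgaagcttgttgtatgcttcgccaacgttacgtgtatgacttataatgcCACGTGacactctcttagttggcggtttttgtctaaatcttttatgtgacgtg

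**Figure D4:**
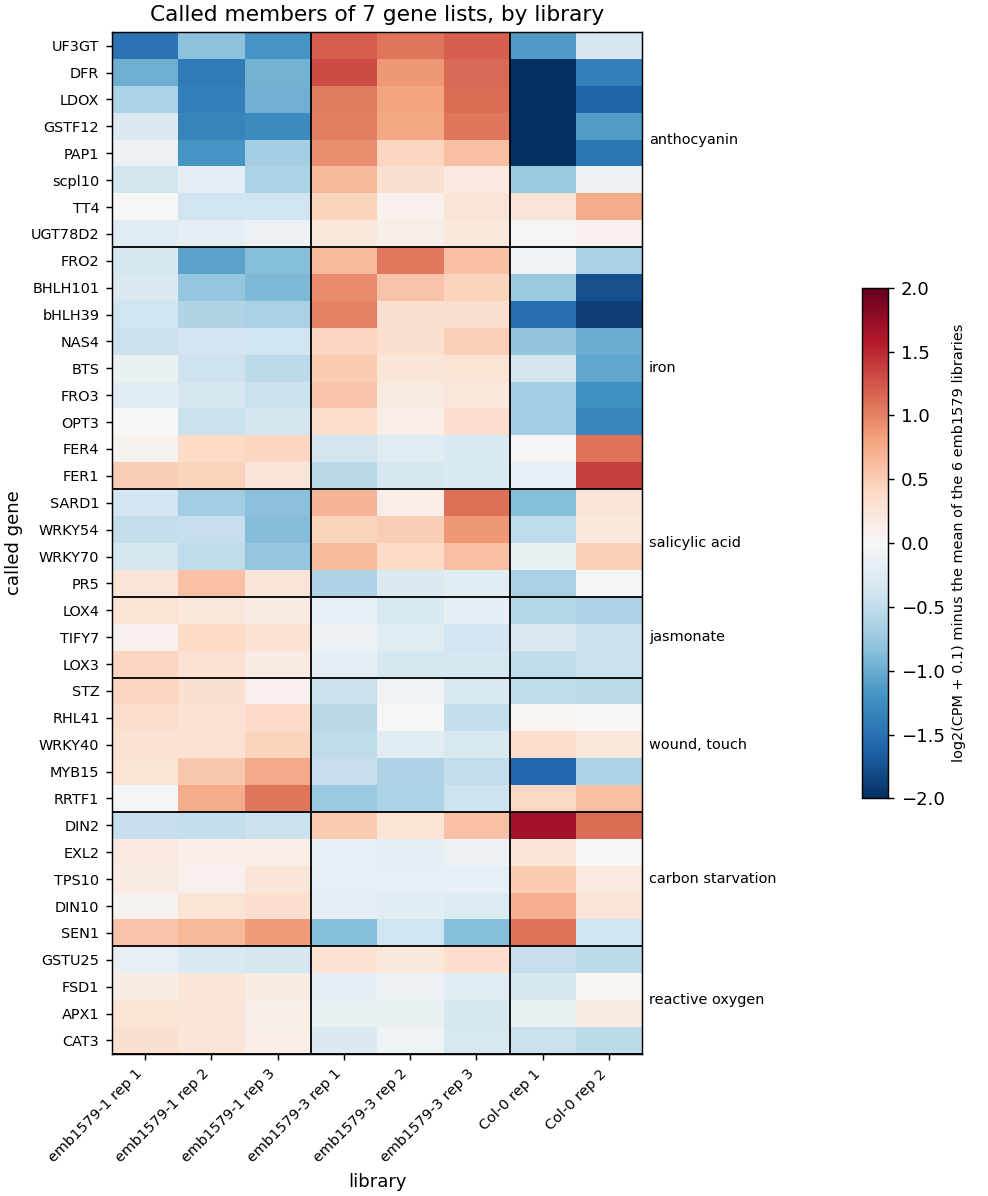
Level of the called members of 7 gene lists (rows) in each library (columns), as log2(CPM + 0.1) minus the gene's mean over the 6 emb1579 libraries, with red above and blue below that mean. Anthocyanin and most iron genes are red in the 3 emb1579-3 libraries, and jasmonate, wound and reactive oxygen genes other than GSTU25 are blue there; the 2 Col-0 columns on the right did not enter the comparison.

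Of 16 tested genes of salicylic acid and pipecolic acid immunity, 3 were higher in emb1579-3 and 1 was lower, with a median log2 fold change of 0.08. The share called was 25%, beside 1.24% of all tested genes. Salicylic acid is the hormone of defence against biotrophic pathogens. WRKY70 and WRKY54 are related transcription factors that act downstream of it and restrain its build-up, and SARD1 drives its synthesis. WRKY70 was at 62.4, 56 and 46.2 CPM in the libraries labelled emb1579-1 and at 123, 104 and 120 CPM in emb1579-3 (log2 fold change 1.08, SE 0.10, adjusted p = 2.5e-05). WRKY54 was at 8.88 ± 1.4 and 20.6 ± 3.5 CPM (SD, n = 3 each; log2 fold change 1.21, SE 0.15, adjusted p = 0.000212). In both genes the groups did not overlap. SARD1, which overlaps another annotated gene, was at 3.4 ± 0.57 and 8.64 ± 2.8 CPM (SD, n = 3 each; adjusted p = 0.00717), and lost its call without replicate 2 or 3 labelled emb1579-1, with adjusted p up to 0.0663.

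The enzymes and receptors of the pathway did not pass the threshold. EDS16, which makes salicylic acid, had a log2 fold change of -0.16, NPR1, its receptor, 0.22, and PAD4, EDS1 and CBP60G 0.07 to 0.25. PR5, a classic output gene, was lower, at 11.7 ± 1.6 and 6.96 ± 1.0 CPM (SD, n = 3 each; adjusted p = 0.0182; up to 0.136 with a library left out). Also on the list, NIMIN1 (log2 fold change 1.65, adjusted p = 0.0543) and BGL2 (-0.05) did not pass. The counts on the list were 4 higher and 1 lower without replicate 1 labelled emb1579-1, with NIMIN1 among the higher genes (adjusted p = 0.0259). Outside the list and chosen by size or adjusted p, PCC1, a circadian and pathogen-responsive gene, was at 8.89 ± 2.2 and 24.2 ± 1.1 CPM (log2 fold change 1.45, SE 0.14, adjusted p = 2.23e-05). Its neighbour AT3G22235, of the same cysteine-rich stress protein type, was at 18, 21 and 19.5 CPM and 54.6, 60 and 70.1 CPM (log2 fold change 1.66, adjusted p = 6.42e-08). ACD6, a regulator of leaf immunity and cell death, was 2.49-fold higher (adjusted p = 0.00428). Col-0 held 30.9 and 79.3 CPM of ACD6, one between the lines and one above both.

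Jasmonate is made from chloroplast lipids by lipoxygenases after wounding and acts by removing JAZ repressors, whose genes it induces. Of 21 tested genes of jasmonate synthesis and response, 0 were higher and 3 lower in emb1579-3 (median log2 fold change -0.22). The share called was 14.3%, beside 1.24% of all tested genes. LOX3 was at 54.5, 49.4 and 45.7 CPM labelled emb1579-1 and at 35.7, 31.7 and 31.9 CPM in emb1579-3 (log2 fold change -0.59, SE 0.09, adjusted p = 0.00205). LOX4 and the repressor gene TIFY7 were 1.34 and 1.42-fold lower, with adjusted p up to 0.0922 and 0.0628 when a library was left out. Outside the list, JAZ6 was 1.40-fold lower (adjusted p = 0.00687; up to 0.0618). All 3 called genes of the list had a Col-0 mean nearer to emb1579-3, with LOX3 at 28.4 and 30.1 CPM in Col-0.

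This list turned on 1 library. Without replicate 1 labelled emb1579-1, 5 of its genes were higher and 6 lower. VSP2, a vegetative storage protein induced by jasmonate, was at 197 CPM in that library and at 84.9 and 82.3 CPM in its 2 sister libraries, against 327, 300 and 343 CPM in emb1579-3. Its adjusted p was 0.402 with all 6 libraries and 1.98e-11 without replicate 1. LOX2 was at 1380 CPM there and at 745 and 725 CPM in the others, against 1670, 1470 and 1490 CPM in emb1579-3 (adjusted p = 0.561 and 1.16e-07). AOS, AOC2 and VSP1 were the other genes called higher without it. In Col-0, LOX2 was at 277 and 403 CPM.

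Of 16 tested genes of the immediate wound, calcium and touch response, 0 were higher and 5 lower (median log2 fold change -0.33). The share called was 31.2%, beside 1.24% of all tested genes. All 5 lower genes encode transcription factors that are induced within minutes of stress. WRKY40 was at 39.7, 39.4 and 43.9 CPM labelled emb1579-1 and at 22.7, 27.5 and 25.9 CPM in emb1579-3 (log2 fold change -0.69, SE 0.10, adjusted p = 0.000771). The zinc finger genes STZ and RHL41 were 1.47 and 1.60-fold lower, RRTF1 2.44-fold and MYB15 2.12-fold. Leaving out replicate 1 labelled emb1579-1 gave 6 lower genes, and with another library left out 1 to 4 were. WRKY40 was called in all 6 reduced fits, and the adjusted p of the other 4 reached 0.11, 0.143, 0.193 and 0.2 in them, in the order named. ORA47, an AP2 factor of the same early response that is not on the list, was 2.13-fold lower (log2 fold change -1.09, SE 0.10, adjusted p = 1.08e-05). TCH3, TCH2, TCH4 and WRKY33, also on the list, did not pass. WRKY40, ORA47 and RRTF1 overlap another annotated gene.

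Of 17 tested genes that respond to carbon shortage, 4 were lower and 1 was higher in emb1579-3, with a median log2 fold change of -0.21. The share called was 29.4%, beside 1.24% of all tested genes. Carbon shortage genes are switched on in darkness or when sugar runs out and mark the breakdown of reserves. SEN1 (AT4G35770), a senescence gene induced by darkness, was at 59.3 ± 5.8 CPM in the libraries labelled emb1579-1 and at 22.6 ± 4.2 CPM in emb1579-3 (SD, n = 3 each; log2 fold change -1.40, SE 0.12, adjusted p = 8.06e-06). In Col-0 it was at 77.6 and 27.7 CPM, one above both lines and one near the top of emb1579-3. DIN10, a raffinose synthase family gene, was 1.37-fold lower, the trehalose phosphate synthase gene TPS10 1.26-fold and EXL2 1.23-fold. DIN2, a glycosyl hydrolase gene of the same list, went the other way, at 3.65, 3.64 and 3.73 CPM and 7.38, 6.15 and 7.66 CPM (log2 fold change 0.95, SE 0.17, adjusted p = 0.00883). ASN1, the dark-induced asparagine synthetase, had a log2 fold change of -0.60 without passing (adjusted p = 0.233). The counts were 5 lower and 1 higher without replicate 1 labelled emb1579-1, and with another library left out 1 to 3 lower. SEN1 was called in every reduced fit, while DIN10, TPS10, EXL2 and DIN2 reached adjusted p of 0.0851, 0.214, 0.175 and 0.0645.

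Related genes outside that list were picked after their values were seen. The BTB and TAZ domain genes BT1, BT2 and BT5 were 1.54, 1.33 and 1.42-fold lower. BT1 was at 45.4, 54.3 and 49.6 CPM labelled emb1579-1 and at 35.2, 31.2 and 30.5 CPM in emb1579-3 (adjusted p = 0.00157). The dormancy-associated genes AT2G33830 and DYL1 were lower (adjusted p = 0.0013 and 0.00636), with 180 and 118 CPM as the means of the lines for AT2G33830. The beta-xylosidase gene BXL1 was 1.81-fold lower. Each of these genes except BT2 was called with any library left out, and BT2 reached an adjusted p of 0.0677. In Col-0 all of them had means above both lines, for instance 83.1 and 56 CPM for BT1.

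Of 20 tested genes of salt tolerance and reactive oxygen, 1 was higher and 3 were lower (median log2 fold change -0.03). The share called was 20%, beside 1.24% of all tested genes. GSTU25, a glutathione S-transferase, was at 48.3 ± 3.3 and 70.8 ± 3.1 CPM (SD, n = 3 each; adjusted p = 0.00108). APX1, which removes hydrogen peroxide in the cytosol, was at 288 ± 16 and 215 ± 15 CPM, CAT3 (AT1G20620), a catalase, was 1.37-fold lower and FSD1, an iron superoxide dismutase, 1.28-fold. Without replicate 1 labelled emb1579-1 the counts were again 1 higher and 3 lower. GSTU25 was called in each reduced fit. APX1, CAT3 and FSD1 were not, with adjusted p up to 0.0635, 0.0891 and 0.127, and 0 of the 3 were called without replicate 2 labelled emb1579-1 or emb1579-3 replicate 3. SOS1, SOS2 and SOS3 of the sodium export pathway had log2 fold changes of -0.03, 0.01 and -0.21 and HKT1, a sodium transporter, -0.08, none of them past the threshold.

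**Figure D5:**
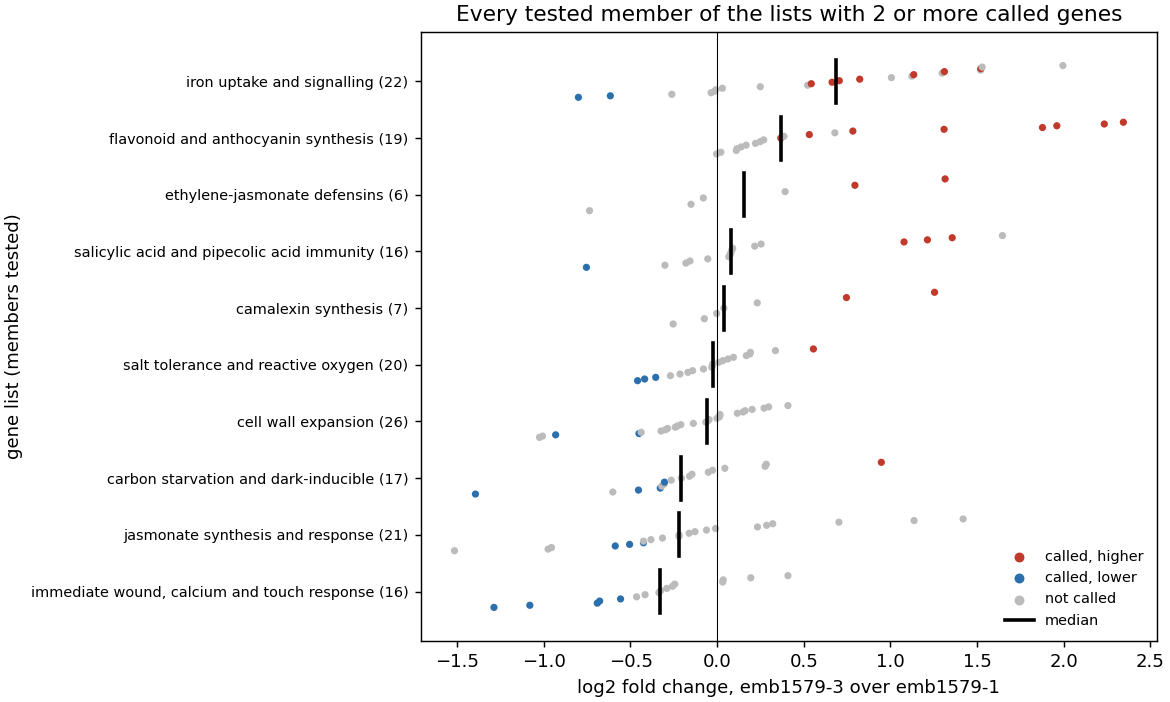
Log2 fold change of every tested member (points) of the 10 gene lists with 2 or more called genes, sorted by the list's median (black bar), with the number of tested members in brackets. Red and blue points passed the threshold as higher or lower in emb1579-3 and grey points did not; the iron list has the highest median, 0.68, and the wound and touch list the lowest, -0.33.

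Smaller groups had 1 or 2 calls each, too few to set beside the 1.24% of all tested genes. Leaving out replicate 1 labelled emb1579-1 gave 284 higher and 223 lower of all 19994 genes tested. In that fit 2 of 6 defensin genes were higher and 1 lower, 2 of 7 camalexin genes were higher and 3 of 26 cell wall genes lower. Of 15 aliphatic glucosinolate genes 2 were lower, and of 17 root markers 2 were higher and 1 lower. The defensin genes PDF1.2 and PDF1.2c were 1.74 and 2.49-fold higher in emb1579-3 (adjusted p = 0.0162 and 0.025). They are near-identical neighbours on chromosome 5, so reads may be shared between them, and neither was called in 4 of the 6 reduced fits. CYP71A13 and CYP71A12, close relatives that start camalexin synthesis, were 2.39 and 1.68-fold higher. CYP71A12 lost its call in 4 of the 6 reduced fits, with adjusted p up to 0.131. CYP71A13, which overlaps another annotated gene, was at 4.9, 2.61 and 3.97 CPM labelled emb1579-1 and at 8.73, 8.78 and 9.64 CPM in emb1579-3 (adjusted p = 0.00221), while PAD3, the last enzyme, had a log2 fold change of 0.23 (adjusted p = 0.587). KIN2, a cold and abscisic acid gene, was at 132 ± 15 and 197 ± 9.0 CPM (SD, n = 3 each; adjusted p = 0.00118) and was the sole call among 25 dehydration and cold genes. Without replicate 1 labelled emb1579-1, 8 of the 25 were higher, P5CS1 and COR15A among them (adjusted p = 3.86e-06 and 3.18e-05). In that fit 284 of all 19994 tested genes were higher. The library left out was itself higher over this list than the others of its line, by a median log2 of 0.58. CCA1, a morning clock gene, was 1.53-fold higher (adjusted p = 0.0188; up to 0.0916), with 0 of 12 evening clock genes called.

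GASA1, a gibberellin-regulated cell wall peptide gene, was at 232, 206 and 203 CPM labelled emb1579-1 and at 95.1, 116 and 87.9 CPM in emb1579-3 (log2 fold change -1.10, SE 0.10, adjusted p = 8.06e-06). It was the sole call among 20 gibberellin and brassinosteroid genes. The cell wall enzymes XTH4 and XTR6 were 1.37 and 1.91-fold lower, and the vacuolar water channel gene DELTA-TIP 1.35-fold. XTH4 was called in every reduced fit, and XTR6 and DELTA-TIP reached adjusted p of 0.0716 and 0.107. CYP71B22 was at 14.8 ± 1.9 and 5.31 ± 1.1 CPM (SD, n = 3 each; log2 fold change -1.48, adjusted p = 5.15e-05) and its relative CYP71B12 at 6.83 ± 0.56 and 13.8 ± 0.09 CPM (log2 fold change 1.02, adjusted p = 0.000337), so the family did not move one way. The chitinase genes AT2G43590 and AT2G43620 were lower in emb1579-3, at 46.3 and 27.6 CPM and at 21.5 and 12.1 CPM as the means of the lines.

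Single calls in other lists and low genes complete the picture of named genes. AOP2, of aliphatic glucosinolate synthesis, was at 32.5 ± 2.7 and 23.8 ± 2.8 CPM (SD, n = 3 each; adjusted p = 0.048) and TSO2, a ribonucleotide reductase gene, at 58.6 ± 7.0 and 77.8 ± 7.4 CPM (adjusted p = 0.0428). AIR1, a root gene first found by its response to auxin, was low in both lines, at 1.55 ± 0.51 and 0.467 ± 0.017 CPM (adjusted p = 0.0443), against 9.79 and 7.97 CPM in Col-0. The calls of AOP2, TSO2 and AIR1 did not hold in every reduced fit, with adjusted p up to 0.272, 0.214 and 0.297. PEPC1 (AT1G17710), a phosphatase gene, was at 3.34, 3.78 and 3.02 CPM labelled emb1579-1 and at 1.08, 1.12 and 0.766 CPM in emb1579-3 (log2 fold change -1.78, SE 0.28, adjusted p = 0.00249), and held its call with any library left out. The zinc finger gene ZAT7 and the receptor kinase gene CRK30 were lower, at means of 9.67 and 4.73 CPM and of 8.08 and 3.76 CPM, and each lost its call in some reduced fits (adjusted p up to 0.0882 and 0.0795). Other loci had few reads on one side and were chosen after their values were seen. CYP82G1, which makes a volatile terpene, had 51 counts labelled emb1579-1 and 7 in emb1579-3 (ratio 7.83, 95% exact interval 3.54 to 20.4). The ankyrin gene ANK, which overlaps another annotated gene, had 10 and 71 (ratio 6.61 for emb1579-3 over the other line, 3.39 to 14.4). Both intervals cover counting error only, and ANK lost its call in 4 of the 6 reduced fits, with adjusted p up to 0.2.

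Product families are set here beside the 1.24% of all tested genes that were called. Of 148 cytochrome P450 genes 4 were higher and 2 lower (4.05% called), of 49 peroxidases 1 and 2 (6.12%), of 36 glutathione S-transferases 2 and 1 (8.33%), and of 53 WRKY factors 2 and 1 (5.66%). Jacalin lectins had 1 higher and 1 lower of 26 (7.69%) and UDP-glycosyltransferases 1 and 0 of 38 (2.63%). Receptor-like kinases and leucine-rich repeat proteins had 2 higher and 2 lower of 275 (1.45%) and 2-oxoglutarate-dependent oxygenases 1 and 0 of 80 (1.25%), near the share of all genes. These shares rest on at most 6 called genes each and were not tested. AT5G59670, a receptor-like kinase gene, was at 2.18 ± 0.78 and 6.00 ± 1.3 CPM (SD, n = 3 each; adjusted p = 0.00527), and the jacalin lectin gene AT1G52120 at 6.53 ± 1.6 and 15.2 ± 3.5 CPM (adjusted p = 0.00516). The peroxidase genes AT1G49570 and AT5G39580 had log2 fold changes of 1.13 and -0.72 (adjusted p = 0.0357 and 0.00883). AT1G49570 lost its call in 4 of the 6 reduced fits, AT5G39580 in 2 and AT5G59670 in 1, with adjusted p up to 0.208, 0.0734 and 0.0554. Among cytosolic ribosomal proteins (209 tested), NB-LRR disease resistance proteins (114), F-box proteins (151), histones (46), heat shock proteins (48) and germin-like proteins (27), edgeR called 0 genes at an adjusted p under 0.05. Of these 595 genes, 59 had an unadjusted p under 0.05.

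Of the 41 gene lists, 23 with 418 tested entries had no call with all 6 libraries. Their medians ran from -0.20 to 0.16. At an unadjusted p under 0.05 edgeR had 58 of these 418, beside 1927 of 19697 genes in all. Nitrate transport and assimilation had 9 of 16, with the lowest median. Among them were the lists of the root stem cell niche (18 tested genes), root hair and epidermis (25), endodermal barrier and suberin (20), auxin response (27), cytokinin response (22), DNA replication (18), mitosis and cytokinesis (27), xylem and secondary wall (21), small RNA and DNA methylation (28), flowering time (23), cuticular wax (19), lipid transfer proteins (15) and splicing factors (26). Nutrient lists for nitrate (16), phosphate (16) and sulphur (13) had no call either, nor had indole glucosinolates (12), heat shock (18), alternative respiration (10), evening clock genes (12), and the shoot, seed and pollen markers. EMB1579 partners had no call either other than EMB1579 itself. CUL4 had a log2 fold change of 0.03, DDB1A -0.06, DDB1B -0.11 and FVE, also called MSI4, 0.12. Named members with the smallest p of their lists included GSR 1, a cytosolic glutamine synthetase (log2 fold change -0.31, adjusted p = 0.107), the wax gene CER1 (0.72, adjusted p = 0.0834), the root gene MGP (0.59, adjusted p = 0.228), the helicase subunit gene MCM4 (0.29, adjusted p = 0.255), and the clock gene GI (-0.21, adjusted p = 0.264). The genes closest to the threshold in lists without a call were SHY2, an auxin response repressor (log2 fold change 0.48, adjusted p = 0.054), and LSU2, a sulphur deficiency gene (0.50, adjusted p = 0.0543). Both passed without replicate 1 labelled emb1579-1 (adjusted p = 0.000499 and 0.00756). In that fit, which called 284 higher and 223 lower of all 19994 genes tested, 6 of these 23 lists had calls. These were 8 higher and 2 lower genes in all, among the 418 entries. Besides SHY2 and LSU2 they were LSU1, the nitrate transporter gene NRT1.7, NDB4, BCS1, SGS3 and the lipid transfer gene LTP4, all higher, and the nitrate reductase gene NIA1 and WES1, both lower. LTP4 had the largest difference, with an adjusted p of 8.65e-06. A p that misses the threshold does not show that the lines were alike at these genes.

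The position of Col-0 was read for each called gene from the 2 usable libraries, with no test. For 77 of the 117 higher genes the Col-0 mean was nearer to the libraries labelled emb1579-1 on the log2 scale and for 40 nearer to emb1579-3. For the 127 lower genes the numbers were 70 and 57. Both Col-0 libraries lay beyond those labelled emb1579-1, away from emb1579-3, for 30 higher and 24 lower genes. They lay beyond emb1579-3 for 12 higher and 23 lower genes, and between the lines for 13 and 9. Both were within the range of the libraries labelled emb1579-1 for 7 higher and 4 lower genes, and within that of emb1579-3 for 4 lower genes. For the other 55 and 63 genes the 2 Col-0 libraries fell in different places among these, SEN1 and ACD6 included.

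Called genes were spread over all 5 chromosomes. Between 1.2% and 1.28% of the tested genes of each of the 5 chromosomes were called, against 1.24% in all. Of 121 windows of 1 Mb, 27 had no call and none had more than 6. The highest share was in a window of chromosome 3 with 5 tested genes, of which QQS was called. The next was the window before it, with 3 of 52 (5.77%), namely AT5MAT, the glycosyltransferase gene AT3G29630 and AT3G29633, which are neighbours among the tested genes. AT3G29630 was at 1.47 ± 0.65 and 3.58 ± 0.67 CPM (SD, n = 3 each; adjusted p = 0.0427; up to 0.235 with a library left out). Within 1 Mb of EMB1579 on chromosome 2, 3 of 266 tested genes were called (1.13%), which were EMB1579, AT2G01422 and the rRNA gene AT2G01020. A total of 10 pairs of called genes were next to each other among the tested genes, and 8 of these pairs had the same direction. Whether this is more than the share of called genes would give was not tested. The pairs included FRO3 with AT1G23030, PCC1 with AT3G22235, PDF1.2 with PDF1.2c, and AT4G13495 with the microRNA precursor gene MIR850 that lies inside it. AT4G13495, a noncoding RNA gene, was at 178, 153 and 164 CPM and 271, 303 and 283 CPM (log2 fold change 0.79, SE 0.08, adjusted p = 2.23e-05). Without strand, its reads and those of MIR850 cannot be told apart.

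By type, 235 of 19254 protein-coding genes (1.22%), 3 of 141 pseudogenes and 2 of 106 transcribed pseudogenes were called. The called genes did not stand apart in exon length, with medians of 1720 bases for higher, 1667 for lower and 1802 for all tested genes. Median exon GC was 40.6%, 41.1% and 41.3%. Their median level was higher, at 31.3 and 35.9 CPM against 16.8 CPM. A gene with more reads can be called at a smaller difference, and the part of that in this value was not tested.

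Start regions of 300 bases were searched on both strands for 8 sets of letters. CACGTG was in 16.2% of the windows of the 117 higher genes, 9.45% of the 127 lower genes and 8.66% of all 19676 tested genes with a window. ACGTGG, which overlaps CACGTG where a further G follows, was in 17.1%, 11% and 10.8%. AGATATTT went the other way, in 7.69% of higher, 18.1% of lower and 5.98% of all windows. AAAATATCT, the evening element, holds the reverse complement of AGATATTT, so its matches are counted in both; it was in 1.71%, 8.66% and 3.03%. GCCGCC was in 3.42%, 6.30% and 2.69%, GNATATNC in 9.40%, 9.45% and 6.19%, TTGACC in 13.7%, 11.8% and 14.3%, and AAACCCTA in 5.98%, 3.15% and 5.6%. These shares describe letters in a fixed window and were not tested. Of the lower genes, GASA1, BT1, LOX3, CAT3 and RHL41 were among the 23 with AGATATTT. The windows of GASA1 (chr1:28442386-28442685, minus strand) and BT1 (chr5:25335521-25335820, minus strand) are shown with AGATATTT in capitals, each with 1 match.
GASA1: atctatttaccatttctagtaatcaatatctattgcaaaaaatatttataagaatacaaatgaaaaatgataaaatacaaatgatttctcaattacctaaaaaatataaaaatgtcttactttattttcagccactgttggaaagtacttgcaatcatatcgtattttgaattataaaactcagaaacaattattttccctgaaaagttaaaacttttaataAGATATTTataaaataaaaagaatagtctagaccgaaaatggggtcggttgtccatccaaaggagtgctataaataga
BT1: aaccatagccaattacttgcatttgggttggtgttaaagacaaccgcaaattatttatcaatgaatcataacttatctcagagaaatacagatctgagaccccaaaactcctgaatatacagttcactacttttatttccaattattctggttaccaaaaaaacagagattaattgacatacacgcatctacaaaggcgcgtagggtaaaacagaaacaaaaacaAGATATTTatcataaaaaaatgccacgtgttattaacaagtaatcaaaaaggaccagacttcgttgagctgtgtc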

How the data were processed

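The authors deposited raw read counts, as whole numbers, in 1 table of 33602 loci and 9 libraries. FastQC, HISAT2, Cufflinks and Cuffdiff, with TAIR10 as the build, are listed in the submitters' processing notes. Neither the counting tool nor its strand setting nor its treatment of shared reads is given in the sources used here, so genes that overlap or have close copies (59 of the 244 called genes overlap another) are uncertain. The column prefix of emb1579-3 differs from the labels and its replicate numbers come from the columns. Symbols, positions and start regions came from the RefSeq annotation and genome of TAIR10.1, which held 32835 of the loci.

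Nuclear genes of the 6 libraries of both lines were fitted with edgeR 4.0.16 in R 4.3.3, with TMM factors, the default expression filter, robust dispersions and a quasi-likelihood F-test, adjusted by Benjamini-Hochberg over 19697 genes at 0.05. With 4 residual degrees of freedom, edgeR put the common coefficient of variation between replicates at 0.0883. SE was taken as |log2 fold change| over the root of the F statistic. CPM use TMM factors over 8 libraries on the tested nuclear genes, and differ in scale from CPM over all counts. The design text calls the libraries biological replicates, and p-values measure their spread. No pair of libraries agreed within sampling noise (chi-square per gene at least 3.95). On simulated counts for this comparison, of which 19576 genes passed the filter, the fit called 79.1% of the 1.5-fold, 97% of the 2-fold and 100% of the 4-fold changes. The changes were placed only in genes above a floor on the expected count, and every gene had the same scatter. These shares therefore do not cover genes with few counts or a library that stands apart.

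The comparison, its 41 gene lists and 14 product families were chosen with earlier results of these data known. Of 876 list entries, 822 were matched to a locus of the annotation and kept, and 44 had no match or an ambiguous one. A further 10 were dropped because the annotation gives the symbol to another gene. Lists are described by counts and medians, with no test. Named genes are EMB1579; the 12 highest and 12 lowest fold changes and the 6 smallest adjusted p per direction among called genes that have a symbol, average 2 CPM or more and do not overlap between the lines; up to 3 called genes per list, or the smallest p of a list without a call; up to 2 per family; and up to 6 in the 1-Mb window with the largest share of calls. This gave 82 genes, 15 of which overlap another gene. Others are said to be chosen after their values were seen. Alternatives were RLE factors, organelle genes in the library sizes, filters, DESeq2 1.42.0, limma-voom (limma 3.58.1), a replicate block, Col-0 libraries in the fit and leaving out each library.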

Additional observations from a re-analysis of the deposited data

How the results depend on the processing

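The counts of 117 higher and 127 lower genes, and of 36 and 21 at 2-fold or more, stayed within 1.5 times under RLE factors, organelle genes in the library sizes, limma-voom, DESeq2 and the replicate block. Without a filter on low counts 264 and 297 genes were called, with 57 and 34 at 2-fold or more. With at least 10 CPM in 3 libraries, 22 and 7 were at 2-fold or more. An 8-library fit with Col-0 replicates 1 and 2 called 88 and 89 (24 and 17 at 2-fold or more). All 9 libraries gave 0 and 2 calls (0 and 2 at 2-fold), with 300 genes at an unadjusted p under 0.05. This fit added Col-0 replicate 3, which held 0.423 M nuclear counts against 12.5 to 19 M in the other libraries. The simulation, which gave every gene the same scatter and changed only genes above a count floor, called most 1.5-fold changes with 6 libraries. Leaving out 1 library gave 56 to 284 higher and 50 to 223 lower genes, and 23 to 80 and 14 to 42 at 2-fold or more. No called gene reversed in any setting. M17, not called in any, had a log2 fold change of -0.04 and of -0.66 to 0.21 with a library left out, positive in 4 of the 6 fits. Under the 9-library fit 57 of the 59 called named genes lost their call. Some fits had fewer samples or genes, and the 9-library fit added a library with few counts. The cause of these shifts was not tested. The labels give no batch, so replicate numbers were not taken as pairs in the main fit. Deviations of same-numbered libraries correlated at 0.133, 0.028 and 0.152, and those of differently numbered libraries at -0.187 to 0.0294. An effect shared by libraries of the same number was not tested beyond the replicate block. The replicate block gave 167 and 177 calls (49 and 28 at 2-fold or more), 242 of them among the 244.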
